A study of Mus musculus with 15 samples.

Results

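The major histocompatibility complex (MHC) of the mouse, called H2, was examined as a stretch of open chromatin. The members were the ATAC-seq regions that overlap chr17:34100000-36400000 of the mouse build mm39, an interval of 2.3 Mb. They were chosen by position, with earlier results of these data known. The series holds 2 tables of regions, one made for the knockdown comparison and the other for the overexpression comparison, and each lists all 15 libraries. The locus held 195 of the 44598 regions in the KD table and 187 of the 38036 regions in the OE table.

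In ATAC-seq, a transposase cuts open chromatin and tags the cut ends for sequencing, so that read counts follow accessibility. All libraries were made from untreated monolayers of 6DT1, a mammary tumor line of the mouse that grows in FVB/N animals. *Smarcd1*, the altered gene, encodes a subunit of the BAF (SWI/SNF) chromatin remodeling complex. EV cells carried an empty vector and OE cells a *Smarcd1* overexpression vector, Scr cells a scrambled short hairpin RNA and the KD4 and KD6 cells short hairpin RNAs against *Smarcd1*, with 3 libraries each. The labels call EV and Scr wildtype, OE over expression and both KD lines knockdown. According to the study's methods, knockdown and overexpression cells were made by lentiviral transduction and kept under antibiotic selection, with a different antibiotic for the hairpin and the overexpression lines. Each group stands for 1 line in the labels, so p-values do not measure the spread between separately made lines. Line, vector and selection therefore cannot be told apart between EV and Scr. The label protocol, which is written for RNA, takes replicates from different passages. If the ATAC-seq libraries were not separate cultures, p-values cover technical spread alone.

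The MHC holds the genes whose products show peptides to T cells. Class I molecules, found on nearly all nucleated cells, carry peptides made inside the cell to CD8+ T cells, while class II molecules, made mainly by antigen-presenting cells and induced in others by interferon gamma, carry peptides from outside to CD4+ T cells. Class III holds complement, cytokine and many housekeeping genes. In RefSeq's gene order for GRCm38.p6, the H2 complex runs from H2-K1, a classical class I gene, through the class II genes (among them H2-Ab1, H2-Aa, H2-Eb1 and H2-Ea) and the class III genes to H2-D1, the other classical class I gene, and on through the nonclassical class I genes of the Q, T and M groups. RefSeq lists H2-Ea as a transcribed pseudogene. No gene annotation of mm39 was used here, so which of the H2 genes lie inside the examined interval was not determined. The regions carry positions and no gene names, and whether a region lies in a promoter, exon or intron is not given. The H2 genes of inbred strains differ in sequence and in number, mm39 is a C57BL/6 sequence, and many class I genes have close copies. The effect of this on the counts was not tested.

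Totals per library were 16176521 to 23703741 counts (KD table) and 22668624 to 31225937 counts (OE table). Between 111623 and 171412 counts per library fell in the locus in the former, and between 116357 and 172232 in the latter. Levels below are CPM, counts scaled to a common library size, with TMM scaling over the 15 libraries. OE vs EV called 4 regions over the whole genome, all on chromosome 15, the chromosome of *Smarcd1*. Their summed level was between 51.4 and 59.5 CPM in the OE libraries and between 20.4 and 25.7 CPM in the EV libraries, a separation that the choice of regions fixes. At the same regions Scr had 8.80 to 10.6 CPM, KD4 6.30 to 8.21 CPM and KD6 11.1 to 11.6 CPM, so that KD4 lay below Scr and KD6 above it. ATAC-seq does not measure the transcript, and the knockdown was not checked here.

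The locus was dense in open chromatin. The KD table had 84.8 regions per Mb of the locus against 21.0 per Mb over the listed span of chromosome 17, and the OE table had 81.3 against 18.3. The regions covered 3.17% of the locus (KD table) or 2.63% of it (OE table). Their median length was 308 bp in the KD table, where the median of all regions was 302 bp, and 281 bp in the OE table, where it was 270 bp. The median level of a locus region was 12.3 CPM (KD table) or 9.95 CPM (OE table), against 5.66 and 4.89 CPM over all regions. The tables shared most of these sites. Of the 195 KD-table regions, 147 (75.4%) overlapped a locus region of the OE table, and 148 of the 187 OE-table regions (79.1%) overlapped one of the KD table.

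Regions were spread unevenly along the locus. Of the 23 windows of 100 kb, 21 held a region by the KD table and 20 by the OE table. Windows with a region held between 1 and 23 of them in the KD table. The longest stretch with no region ran for 317 kb in the KD table, between positions 34442053 and 34758965, and for 367 kb in the OE table, between 34442011 and 34809445. The locus fell into dense and sparse parts, whose borders were set after the values were seen. In the KD table, the 0.3 Mb from 34.1 Mb held 37 regions and 14.4% of the locus signal, and the next 0.6 Mb, from 34.4 Mb, held 22 regions and 2.56% of the signal. The 0.5 Mb from 35.0 Mb held 60 regions and 30.4%, and the 0.6 Mb from 35.5 Mb held 27 regions and 7.01%. The last 0.3 Mb, from 36.1 Mb, held 49 regions and 45.6%. The OE table gave the same order of shares, with 15.02%, 2.48%, 36.9%, 6.34% and 39.2%.

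**Figure D1:**
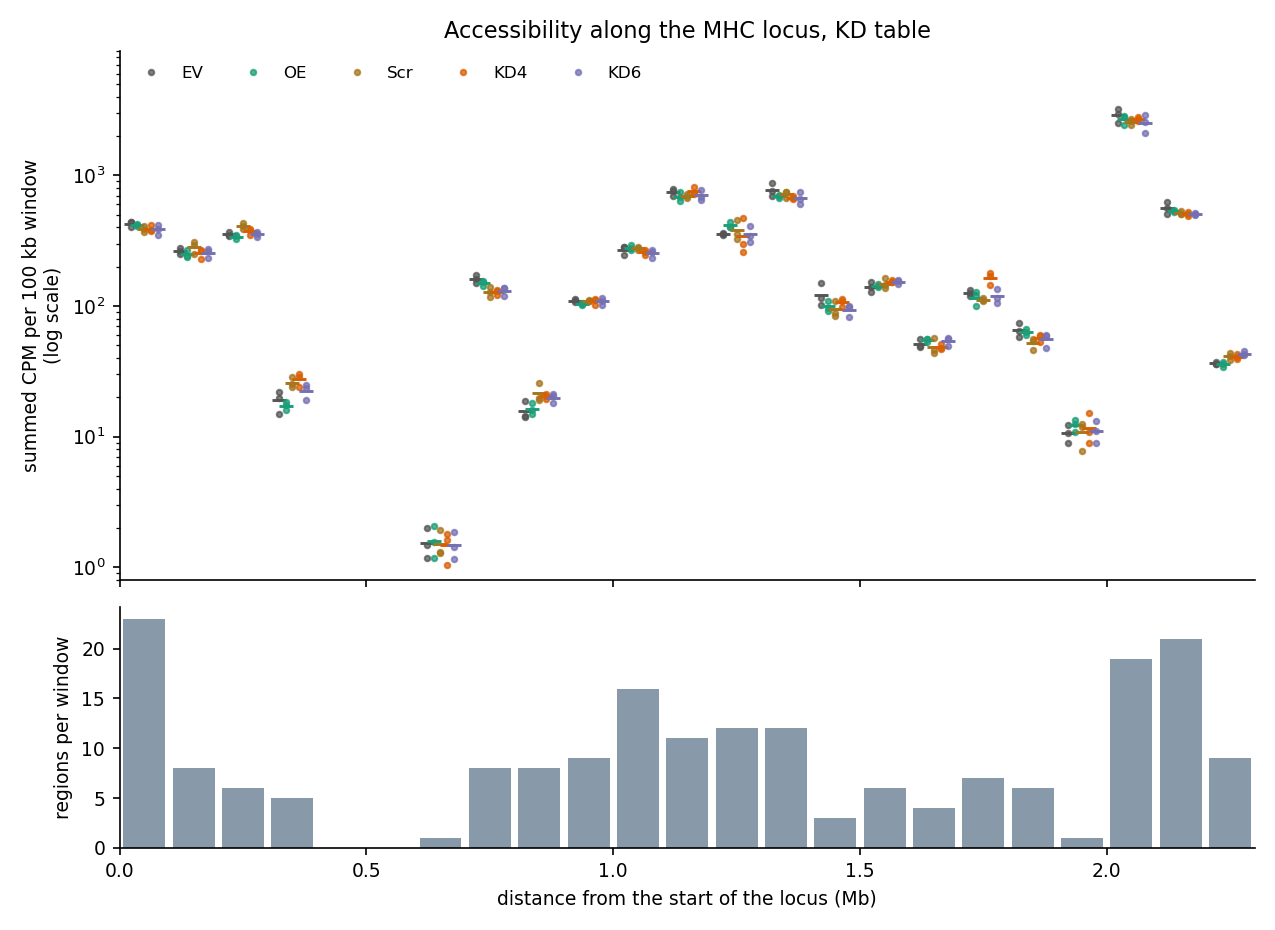
Summed level in CPM (log scale) of the regions of each 100 kb window of the MHC locus in the KD table, against distance from the start of the locus in Mb, with a point per library, a dash per group mean and 5 lines by color. Bars below give the number of regions per window, from 1 to 23. The lines follow each other along the locus, from about 1.52 CPM in the lowest window to 2684 CPM in the highest.

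The window between 36.1 and 36.2 Mb alone carried 37.7% of the summed CPM of the locus in the KD table. Its level was 3216, 2970 and 2516 CPM in the EV libraries, 2800, 2867 and 2436 CPM in the OE libraries, 2613, 2684 and 2413 CPM in the Scr libraries, 2819, 2701 and 2612 CPM in the KD4 libraries and 2916, 2585 and 2114 CPM in the KD6 libraries. The lines overlapped, and within each of the 5 lines replicate 3 was the lowest. The next windows were those from 35.2 Mb (mean 717 CPM) and 35.4 Mb (707 CPM). The windows with the least signal were those from 34.7 Mb (1 region, 1.52 CPM), 36.0 Mb (1 region, 11.3 CPM) and 34.9 Mb (8 regions, 18.7 CPM).

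Within the highest window, 3 of the 5 regions with the highest level per kb lay within 2 kb of each other. They were chr17:36145756-36146150 with 3213 CPM per kb, chr17:36146389-36146872 with 1571 CPM per kb and chr17:36144926-36145418 with 607 CPM per kb in the KD table. The other two were chr17:35484851-35485269 with 832 CPM per kb and chr17:35277389-35277579 with 469 CPM per kb. In the OE table, regions at 4 of these 5 places were also among the 5 highest, and the fifth was chr17:35485877-35486040 with 893 CPM per kb. The 3 regions with the highest summed level held 33.4% of the signal of the locus (KD table) or 30.8% of it (OE table). At the highest of them, chr17:36145756-36146150, the level was 1663, 1374 and 1159 CPM in the EV libraries, 1331, 1301 and 1159 CPM in OE, 1346, 1224 and 1117 CPM in Scr, 1339, 1275 and 1220 CPM in KD4 and 1331, 1186 and 1015 CPM in KD6. In 10 of the 15 libraries its deposited value was not a whole number. The groups overlapped at this region, and within each of the 5 lines the level fell from replicate 1 to replicate 3. The region was not past the threshold in any comparison.

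The summed level of the locus differed little between lines. In the KD table it was 7516 ± 606 CPM in EV, 7119 ± 291 CPM in OE, 7033 ± 145 CPM in Scr, 7137 ± 207 CPM in KD4 and 6830 ± 653 CPM in KD6 (SD, n = 3). The KD4 and KD6 libraries together were 0.01 lower than Scr on the log2 scale (two-sided exact permutation test over libraries, p = 0.881, with 0.0119 the smallest p that 6 against 3 libraries allow). This test shuffled single libraries, although the 6 come from the KD4 and KD6 lines and the 3 from the Scr line alone. Its p-value therefore does not speak for knockdown lines in general. KD6 differed from KD4 by -0.07 (exact permutation test, p = 0.5). KD6 replicate 3 was the lowest library, with 6123 CPM, and without it the difference was 0.0088 for KD6 against KD4 and 0.03 for the KD lines against Scr. OE differed from EV by -0.12 in the OE table (p = 0.3, exact permutation test), and Scr from EV by -0.08 in the KD table (p = 0.4, exact permutation test). An exact test of 3 against 3 libraries cannot go below p = 0.1. With single libraries left out, OE vs EV lay between -0.07 (without EV replicate 1) and -0.18 (without EV replicate 3) and Scr vs EV between -0.03 and -0.14 (without the same libraries), and in the OE table Scr vs EV was -0.17. Scaling moved both values, to -0.02 for OE vs EV and 0.02 for Scr vs EV when library totals were used without TMM.

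Region by region, the lines also stayed close. Among the 190 locus regions of the KD table with at least 1 CPM on average, the highest line mean was a median of 1.30 times the lowest, against 1.32 times over all 41226 such regions. The ratio was above 1.5 in 34 of them (17.9%, against 24.2% of all regions) and above 2 in 4 (2.11%, against 3.26%). In the OE table, 24 of 180 regions (13.3%, against 24.1% of all) were above 1.5 and 6 (3.33%, against 2.97% of all) were above 2. Locus regions had the higher median level, and these shares were not matched for level. The median coefficient of variation within a line was 12.3% in the locus and 13.6% over all regions of the KD table. By windows, the ratio of the highest to the lowest line ran from 1.07 in the window from 35.0 Mb to 1.60 in that from 34.4 Mb.

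**Figure D2:**
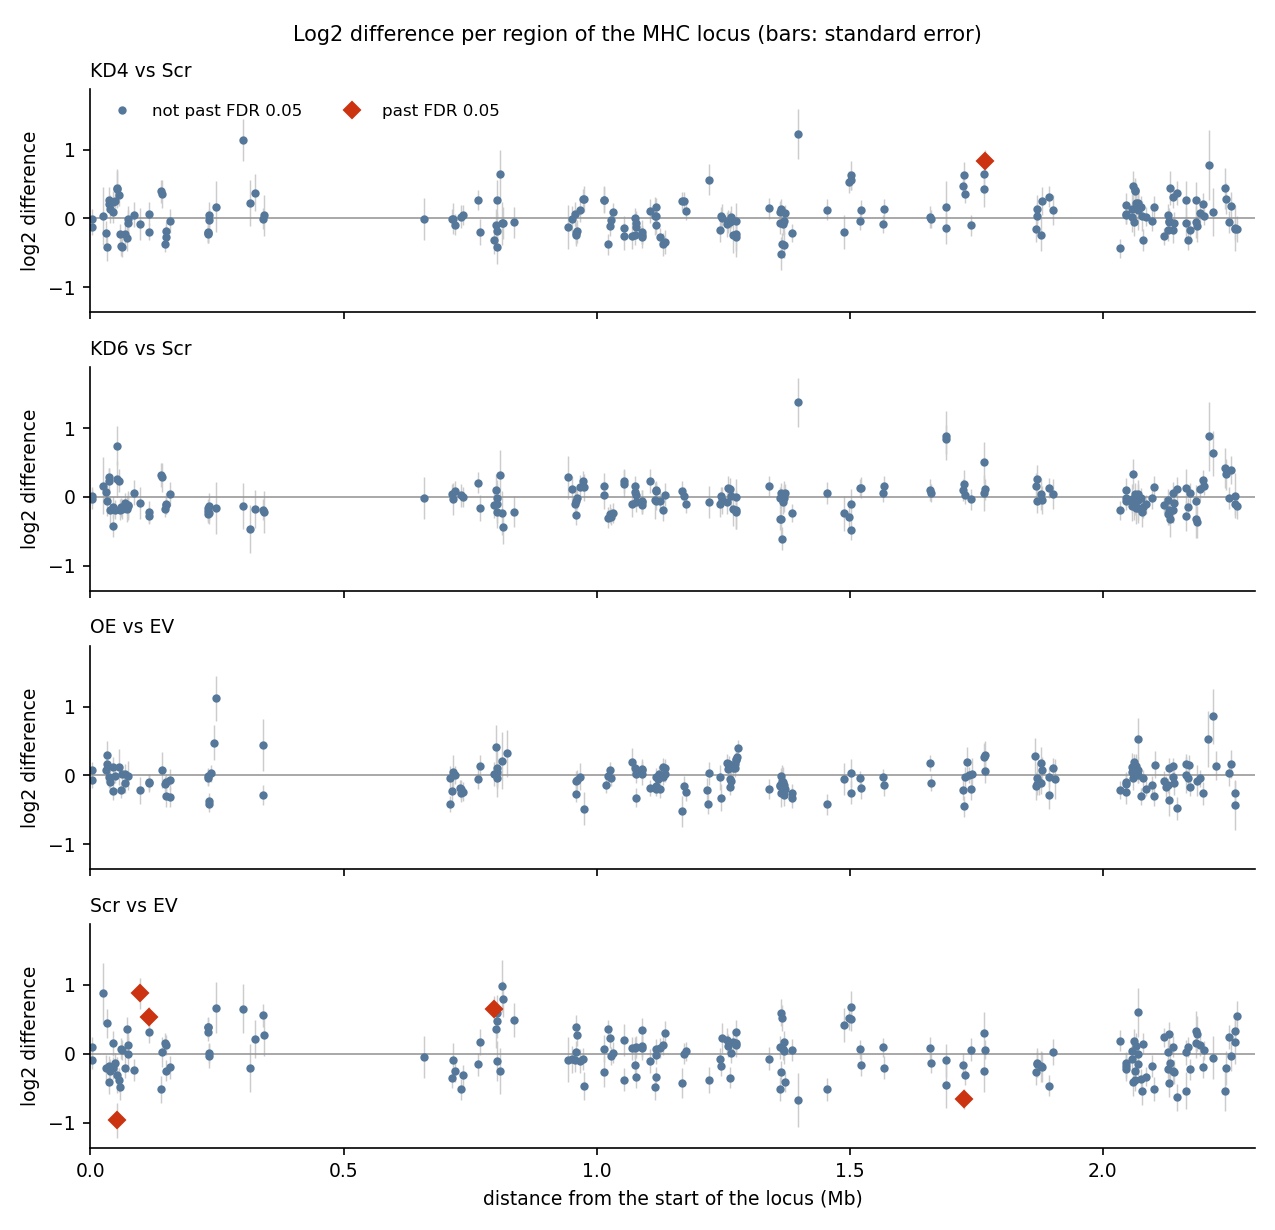
Log2 difference of each tested region of the MHC locus against distance from the start of the locus in Mb, in 4 comparisons, with standard errors as grey bars. Diamonds mark regions past FDR 0.05, which were 1 in KD4 vs Scr, 0 in KD6 vs Scr, 0 in OE vs EV and 5 in Scr vs EV.

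Knockdown was first read as the mean of both lines against Scr, in a fit of Scr, KD4 and KD6 over all regions of the KD table. None of the 195 regions of the locus passed an FDR of 0.05 by edgeR's quasi-likelihood test, or by DESeq2, where 0.271% of all regions tested by edgeR did. At an unadjusted p under 0.05 there were 15 regions (7.69%), 7 higher and 8 lower, and 8.25% of all regions were under that threshold. The median log2 difference was -0.01 in the locus and -0.01 over all regions. None of the 21 windows passed (0.917% of all windows did), and 2 were under an unadjusted p of 0.05, against 13.2% of all windows. DESeq2 called 1 window, that from 35.8 Mb, with a log2 difference of 0.32 and an adjusted p of 0.0378. Over all 9485 windows DESeq2 called 224 higher and 55 lower in the knockdown lines.

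The regions of the locus with the smallest p in that comparison had no call. Of these, chr17:35497353-35497889 was low, at 0.619, 0.365 and 0.427 CPM in Scr, 1.13, 0.827 and 1.35 CPM in KD4 and 1.20, 1.42 and 1.00 CPM in KD6. Both knockdown lines lay above Scr there, and the log2 difference was 1.30 (SE 0.33, edgeR adjusted p = 0.14). At chr17:35466797-35467037 the level was 8.2, 7.3 and 6.6 CPM in Scr, 5.4, 5.3 and 6.2 CPM in KD4 and 4.8, 4.9 and 4.7 CPM in KD6, with a log2 difference of -0.49 (SE 0.14, adjusted p = 0.252). All 6 knockdown libraries lay below the Scr libraries. At chr17:34247367-34247956 the log2 difference was -0.27 (SE 0.10, adjusted p = 0.446), and at chr17:35865230-35867780 it was 0.47 (SE 0.13, adjusted p = 0.23).

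KD4 was the line with a call in the locus. Against Scr, 1 of 195 regions was higher in KD4 and 0 were lower (0.513%, against 0.576% of all regions), and 25 regions (12.8%) had an unadjusted p under 0.05, against 9.74% of all regions. The called region was the longest of the locus, chr17:35865230-35867780, of 2551 bp. Its level was 48.1, 37.9 and 42.6 CPM in Scr and 90.7, 61.8 and 77.3 CPM in KD4, while KD6 had 51.4, 44.7 and 42.4 CPM. EV had 44.9, 41.8 and 37.5 CPM and OE 34.6, 44.2 and 44.4 CPM. The 3 KD4 libraries lay above the other 12, which overlapped each other. The log2 difference of KD4 against Scr was 0.84 (SE 0.15, edgeR adjusted p = 0.0179). The call was lost without KD4 replicate 3, Scr replicate 1, Scr replicate 2 or Scr replicate 3, with adjusted p between 0.0514 and 0.0841 and log2 differences between 0.76 and 0.92.

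In the other direction, KD4 vs Scr had its smallest p at chr17:34247367-34247956, with a log2 difference of -0.37 (adjusted p = 0.228), and chr17:36132995-36133505, with -0.43 (adjusted p = 0.231).

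The OE table holds the long region as 3 short regions, of which KD4 vs Scr called none. At chr17:35866953-35867169 the KD4 libraries had 7.4, 5.1 and 6.7 CPM and the Scr libraries 3.8, 3.1 and 3.2 CPM, a log2 difference of 0.94 (adjusted p = 0.0671). At chr17:35866433-35866779 the difference was 0.85 (adjusted p = 0.104).

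The 100 kb window from 35.8 Mb, which holds the long region and 6 others, was also higher in KD4. Its level was 110.5, 109.0 and 114.1 CPM in Scr, 178.8, 145.7 and 169.2 CPM in KD4 and 134.3, 115.0 and 106.2 CPM in KD6. The log2 difference of KD4 against Scr was 0.56 (SE 0.10, edgeR adjusted p = 0.0141). It was the only one of the 21 windows called (4.76%, against 2.35% of all windows). The long region held 49.6 of the mean of 127 CPM of this window. Without Scr replicate 1 or Scr replicate 2 the adjusted p was 0.0721 or 0.0566. No window was called in the OE table.

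KD6 showed no call against Scr. None of the 195 regions passed by edgeR or DESeq2 (0.149% of all regions did by edgeR), and 11 (5.64%) were under an unadjusted p of 0.05, against 5.87% of all regions. None of the 21 windows passed (0.569% of all windows did), and 1 was under an unadjusted p of 0.05, against 9.13% of all windows. The region with the smallest p was chr17:35789497-35789940, with 2.3, 2.8 and 3.5 CPM in Scr, 4.4, 5.2 and 5.7 CPM in KD6 and 2.3, 2.7 and 2.7 CPM in KD4. KD6 lay above the other lines there, and the log2 difference against Scr was 0.83 (SE 0.21, adjusted p = 0.219). It was 1.37 at chr17:35497353-35497889 (adjusted p = 0.256) and -0.61 at chr17:35466797-35467037 (adjusted p = 0.314).

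The difference between the knockdown lines was tested directly in the same fit. Of 195 regions 2 were lower in KD6 than in KD4 and 0 were higher (1.03%, against 0.224% of all regions), and 22 (11.3%) had an unadjusted p under 0.05, against 6.37% of all regions. At chr17:35603087-35603381 the level was 18.7, 18.3 and 16.95 CPM in KD4, 9.1, 8.7 and 8.6 CPM in KD6 and 13.98, 10.8 and 12.1 CPM in Scr. The Scr libraries lay between the knockdown lines, and EV (8.0, 9.0 and 9.1 CPM) and OE (6.2, 8.0 and 8.6 CPM) lay near KD6. The log2 difference of KD6 against KD4 was -1.03 (SE 0.14, edgeR adjusted p = 0.00497). Without KD6 replicate 2 its adjusted p was 0.0563, and in the OE table the overlapping region chr17:35603125-35603351 had a difference of -1.03 (adjusted p = 0.00814).

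The other called region, chr17:35598923-35599140 lies before it on the chromosome. It had 24.8, 21.1 and 20.6 CPM in KD4, 12.8, 11.01 and 13.96 CPM in KD6 and 13.5, 13.8 and 18.9 CPM in Scr. The KD4 libraries lay above all others, and the log2 difference of KD6 against KD4 was -0.82 (SE 0.16, adjusted p = 0.0446). This call lost its place below the threshold when KD4 replicate 1, 2 or 3, KD6 replicate 1, 2 or 3 or Scr replicate 1 was left out (adjusted p between 0.0596 and 0.325) and without TMM (0.072). Between the called regions, chr17:35601864-35602018 had 10.7, 9.2 and 7.4 CPM in KD4 and 4.6, 5.8 and 6.1 CPM in KD6, with a difference of -0.72 (adjusted p = 0.266). It is named here after its values were seen. Against Scr, the difference at chr17:35603087-35603381 was 0.55 in KD4 (adjusted p = 0.107) and -0.48 in KD6 (adjusted p = 0.443), so that neither line alone was called there.

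The window from 35.8 Mb was lower in KD6 than in KD4 by -0.48 on the log2 scale (SE 0.10, edgeR adjusted p = 0.0436), the one window of 21 called (4.76%, against 1.02% of all windows). Leaving out KD4 replicate 1 or 3, KD6 replicate 2 or 3 or any single Scr library put its adjusted p between 0.0586 and 0.203, and neither the OE table nor windows of 200 kb gave a call. At the long region in that window, KD6 differed from KD4 by -0.73 (adjusted p = 0.055, called by DESeq2 with 0.00404). DESeq2 called 4 regions of the locus in this comparison, and over all 44289 regions it called 159 higher and 92 lower in KD6. Among the 4 was chr17:35789497-35789940, which was higher in KD6 by 0.98 (adjusted p = 0.0203 by DESeq2 and 0.0778 by edgeR). The next region higher in KD6 was chr17:35176468-35177006, by 0.40 (edgeR adjusted p = 0.521).

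The regions where KD4 stood above every other line were then counted among the 190 regions with at least 1 CPM, a description set after the values were seen. All 3 KD4 libraries lay above the other 12 at 5 of them (2.63%, against 0.956% of all such regions). These were the regions starting at 35598923, 35603087, 35823778, 35864091 and 35865230, so that all 5 lay within 0.3 Mb of each other. The same count was 4 for EV (2.11%, against 0.747%), 2 for OE (1.05%, against 0.235%), 3 for Scr (1.58%, against 0.636%) and 1 for KD6 (0.526%, against 0.196%). The share in the locus was thus above that of all regions for every line. Locus regions had the higher median level, and the counts were not matched for level. At chr17:35620014-35620298, the next region after the called pair, KD4 had 53.0, 52.4 and 54.1 CPM and Scr 62.2, 53.0 and 49.0 CPM, a log2 difference of -0.04. The values of that region are uncertain, since another region further along had nearly the same length and levels.

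**Figure D3:**
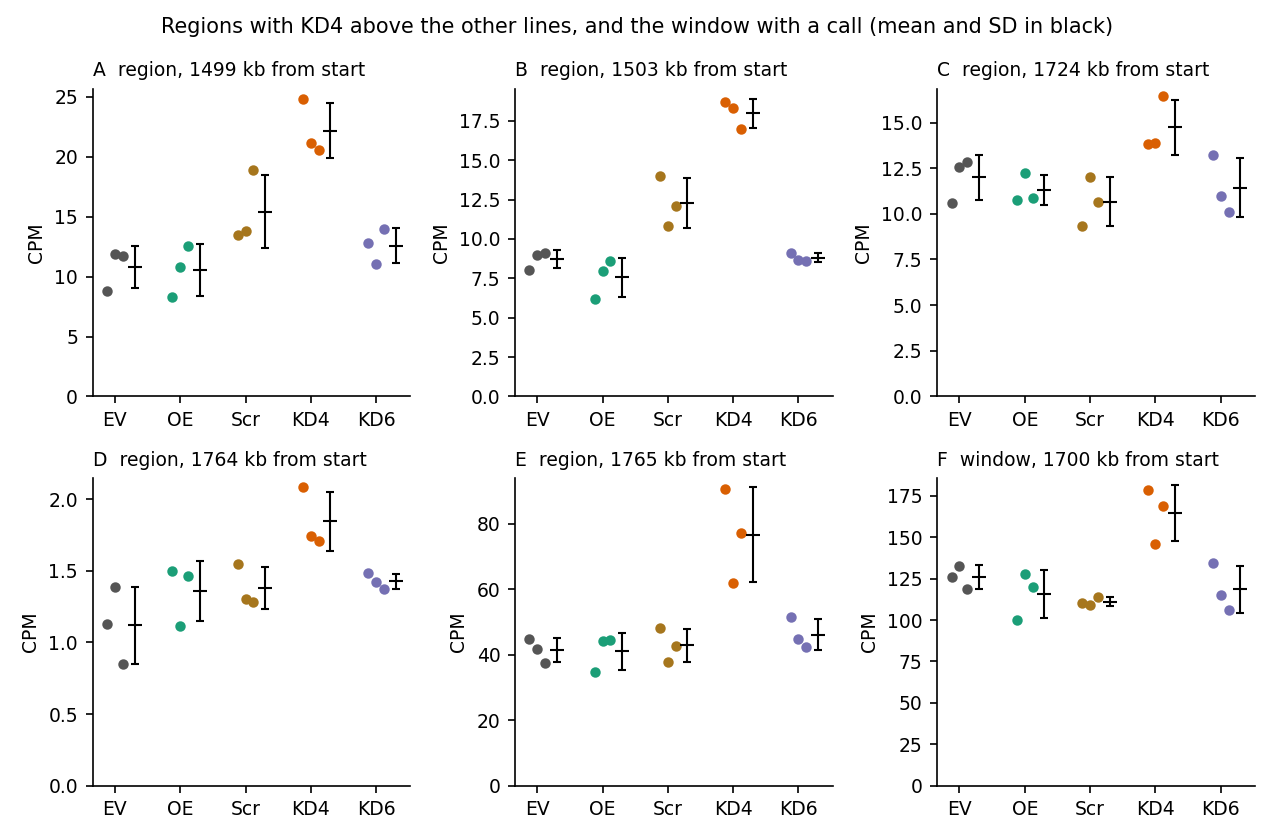
CPM of each library at the 5 regions where KD4 stood above the other 12 libraries (A to E, in order of position) and in the 100 kb window from 35.8 Mb (F), with a point per library and mean and SD in black for n = 3. In panel E, the 2551 bp region, KD4 runs from 61.8 to 90.7 CPM and the other libraries from 34.6 to 51.4 CPM.

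Overexpression of *Smarcd1* gave no call in the locus. None of the 187 regions of the OE table passed an FDR of 0.05 in OE vs EV by edgeR or DESeq2, where edgeR called 0.0106% of all regions. At an unadjusted p under 0.05 there were 16 regions (8.56%, against 8.57% of all regions), 4 higher and 12 lower in OE. The median log2 difference was -0.04 in the locus and 0.02 over all regions. It was 0.06 in the locus and 0.12 over all regions when library totals were used without TMM. None of the 20 windows passed by edgeR or DESeq2, as over all windows (0% by edgeR), and 2 were under an unadjusted p of 0.05, against 10.2% of all windows.

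The regions with the smallest p in OE vs EV moved by less than 1.5-fold, except for one at a low level. At chr17:34333939-34334216 the level was 53.6, 45.7 and 44.3 CPM in EV and 36.1, 37.4 and 32.8 CPM in OE, and the libraries did not overlap. The log2 difference was -0.41 (SE 0.12, edgeR adjusted p = 0.569). At chr17:34809445-34809828 EV had 25.1, 22.6 and 20.4 CPM and OE 17.2, 18.0 and 15.1 CPM, a difference of -0.42 (SE 0.12, adjusted p = 0.569). At chr17:35378837-35379155 OE was above EV, with 43.9, 42.2 and 51.8 CPM against 34.3, 34.6 and 36.8 CPM, a difference of 0.40 (SE 0.12, adjusted p = 0.569). The KD4 libraries at that region ranged from 23.04 to 57.9 CPM, wider than the difference between OE and EV. At chr17:34347473-34347772, with 0.44, 0.561 and 0.399 CPM in EV and 1.14, 0.957 and 0.936 CPM in OE, the difference was 1.12 (SE 0.33, adjusted p = 0.569).

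The control lines were compared with each other to place all 5 lines along the locus. In Scr vs EV, tested in the KD table, 5 of 194 regions passed, 3 higher and 2 lower in Scr (2.58%, against 4.38% of all regions), and 43 (22.2%) had an unadjusted p under 0.05, against 22.8% of all regions. The share in the locus was thus near or below that of the table. Without TMM the split was 4 higher and 1 lower, as it was 1075 higher and 436 lower over all regions against 958 and 963 with TMM. The count ran from 0 to 12 when single libraries were left out. It was 0 without EV replicate 2, Scr replicate 1 or Scr replicate 3, 2 without EV replicate 1, 11 without EV replicate 3 and 12 without Scr replicate 2. The calls over all regions also fell and rose in these fits. Without EV replicate 2, 106 were higher and 305 lower, without Scr replicate 1 153 and 213, and without Scr replicate 3 220 and 234. They were 304 and 356 without EV replicate 1, 1348 and 1504 without EV replicate 3, and 1183 and 1478 without Scr replicate 2. The OE table also gave 5 calls, but mostly at other places. Only chr17:36323564-36323725 was higher in Scr there, by 0.99 (edgeR adjusted p = 0.0182), and the others were lower. Of the KD-table calls, only chr17:35825449-35825876 overlapped one of them, chr17:35825492-35825800, with -0.72 (adjusted p = 0.0184).

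Among the called regions, 3 lay in the first 0.2 Mb of the locus. At chr17:34197231-34197461 Scr had 6.9, 5.5 and 9.9 CPM and EV 3.1, 4.6 and 4.6 CPM, a log2 difference of 0.88 (SE 0.23, edgeR adjusted p = 0.0356). At chr17:34216011-34216342 Scr had 40.9, 41.3 and 49.1 CPM and EV 27.1, 32.0 and 32.4 CPM, a difference of 0.53 (SE 0.14, adjusted p = 0.0391). At chr17:34152045-34152219 Scr was lower, with 1.7, 1.9 and 1.9 CPM against 4.7, 3.5 and 2.7 CPM in EV, a difference of -0.96 (SE 0.25, adjusted p = 0.0379, and 0.069 without TMM). Scr and EV libraries did not overlap at any of these regions.

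Further along, chr17:34896900-34897288 was higher in Scr, with 8.8, 7.0 and 9.2 CPM against 4.9, 5.6 and 5.5 CPM in EV, a difference of 0.66 (SE 0.18, adjusted p = 0.046). The region chr17:35825449-35825876 was lower in Scr, with 16.7, 20.2 and 16.02 CPM against 27.4, 29.2 and 27.2 CPM in EV, a difference of -0.65 (SE 0.14, adjusted p = 0.0176). That region lies in the window from 35.8 Mb, and KD4 had 25.6, 26.0 and 30.3 CPM there, close to EV, while KD6 had 26.5, 20.8 and 13.1 CPM. In 12 of its 15 libraries the deposited value was not a whole number.

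By windows, Scr vs EV called 1 of 21 (4.76%, against 10.7% of all windows), that from 34.4 Mb, next to the stretch without regions. Scr had 23.8, 28.3 and 25.4 CPM there and EV 22.02, 14.9 and 19.7 CPM. The libraries did not overlap, and the log2 difference was 0.51 (SE 0.15, edgeR adjusted p = 0.0487). The call was lost without EV replicate 2, EV replicate 3 or any single Scr library (adjusted p between 0.0502 and 0.149), with RLE scaling (0.0511) and in the OE table. The KD4 libraries, with 24.1, 30.1 and 28.6 CPM, lay above the EV libraries. The KD6 libraries, with 23.7, 24.7 and 19.03 CPM, overlapped both control lines, and the OE libraries, with 18.3, 16.1 and 17.5 CPM, lay within the range of EV.

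**Figure D4:**
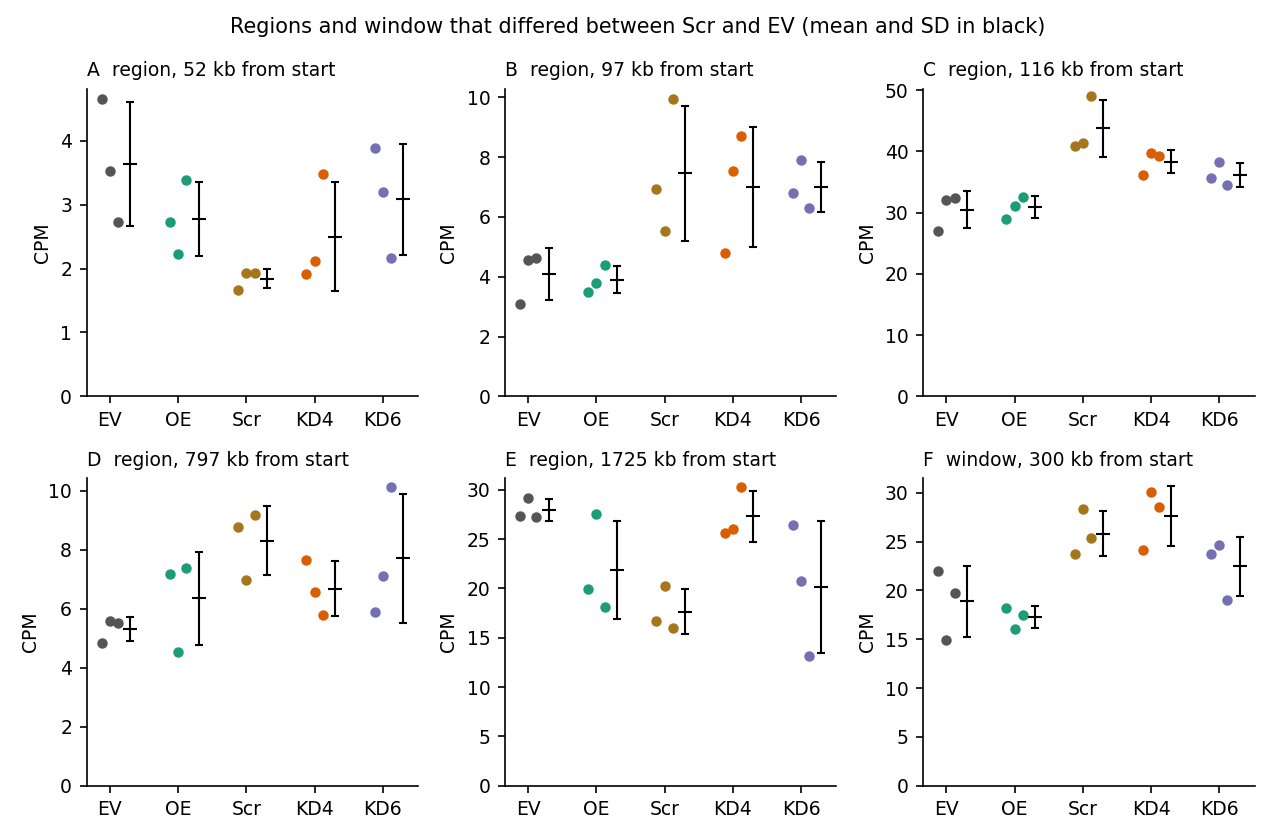
CPM of each library at the 5 regions that differed between Scr and EV (A to E, in order of position) and in the 100 kb window from 34.4 Mb (F), with a point per library and mean and SD in black for n = 3. In panel C, the region starting at 34216011, Scr runs from 40.9 to 49.1 CPM and EV from 27.1 to 32.4 CPM.

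The rest of chromosome 17 was read beside the locus. Outside the locus, 7 of 1725 regions of the chromosome passed in the KD lines against Scr (0.406%), 13 in KD4 vs Scr (0.754%), 4 in KD6 vs Scr (0.232%), 4 in KD6 vs KD4 (0.232%), 0 of 1491 in OE vs EV and 70 of 1705 in Scr vs EV (4.11%). The locus held 0, 1, 0, 2, 0 and 5 calls in the same order.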

How the data were processed

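The 15 monolayer ATAC-seq libraries of 6DT1 comprised 3 each of EV, OE, Scr, KD4 and KD6. The study's methods name Bowtie2 for alignment to mm39 and MACS, run in Partek Flow, for peaks. The submitters' processing notes instead name STAR 2.7.8a (also mm39), and the label protocol is one for RNA. Which aligner the authors used, and whether ATAC-seq reads alone were counted, is thus uncertain. Not given in the sources used here are how peaks became regions and how reads that match several places were assigned. The authors deposited expected counts per region without scaling. Of the locus values, 91.8% (KD table) and 90.4% (OE table) were whole numbers within 1e-06, and all were rounded to whole numbers. The design had assumed whole-number counts, and its tests were kept. A further 15 columns per table fit no sample's label and stayed out. Labels do not say which knockdown line carries which hairpin of the study.

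Regions, and counts summed over 100 kb windows of the whole genome (regions placed by midpoint), were tested with the quasi-likelihood fit of edgeR 4.0.16 (R 4.3.3), using TMM scaling, filterByExpr and a Benjamini-Hochberg FDR of 0.05 over all regions or windows. Scr, KD4 and KD6 were fitted together, OE with EV in the OE table, and Scr with EV in the KD table. The summed locus level was compared by exact permutation tests. The text names every locus region and window past FDR 0.05, the 2 regions with the smallest p in each direction, the 5 regions with the highest CPM per kb of each table and the 3 windows with most and least signal. Parts of the rule that need gene names or cell type markers could not be applied without an mm39 annotation. The members and lists were chosen with earlier results of these data known. Alternatives were other scalings, DESeq2 1.42.0, other filters, the other table, other windows, a block for the replicate number, libraries left out singly and fits without mitochondrial and the 20 largest regions. The fits were also run on simulated counts with known changes, and the outcome is not given here. The variance between replicates of a group was at least 3.75 times that of sampling alone (chi-square over degrees of freedom), so no library was counted as a copy of another. This does not show that the libraries were separate cultures.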

Additional observations from a re-analysis of the deposited data

Results flagged for a closer look

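The test of KD6 against KD4 differed from 0 at 2 regions (1.03%, against 0.224% of all regions) and 1 window of the locus (4.76%, against 1.02% of all windows). At these places the knockdown lines differed in their change against the same Scr libraries. The log2 difference of KD6 against KD4 was -1.03 at chr17:35603087-35603381, -0.82 at chr17:35598923-35599140 and -0.48 in the 100 kb window from 35.8 Mb. Of 16 alternatives that kept the same regions or windows, 15 kept the first call, 7 the second and 9 that of the window.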

How the results depend on the processing

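No region or window of the locus was called under any alternative for KD6 vs Scr or OE vs EV. For KD vs Scr, DESeq2 alone called 1 window. Over all windows DESeq2 called 224 higher and 55 lower there, where edgeR called 81 and 6. The region called in KD4 vs Scr fell to 0 with the regions of the other table and between 0 and 1 when single libraries were left out, and the window did the same, 0 in the other table and between 0 and 1. In KD6 vs KD4 the 2 regions became 4 with DESeq2, 1 in the other table and between 0 and 2 with a library left out, and the window 0 in the other table, 0 with windows of 200 kb and between 0 and 1 with a library left out. Over all regions DESeq2 called 159 higher and 92 lower in that comparison, where edgeR called 67 and 32. In Scr vs EV the 5 regions ranged from 0 to 12 with a library left out. Over all regions, 958 were higher and 963 lower with all libraries. They were 1348 and 1504 without EV replicate 3, and 153 and 213 without Scr replicate 1. The other table also gave 5 calls in the locus, of which only chr17:35825492-35825800 overlapped a call of the KD table. The 1 window became 0 with RLE scaling, 2 without TMM, 3 with DESeq2 and 0 in the other table. With windows of 50 kb there were 2, and with a library left out between 0 and 1. Over all windows of 100 kb DESeq2 called 775 higher and 618 lower in Scr, where edgeR called 601 and 413. The summed locus difference changed sign for KD vs Scr in the other table (0.0315) and over libraries left out (-0.0291 to 0.0259), for KD6 vs KD4 over libraries left out (-0.1288 to 0.0088) and for Scr vs EV without TMM (0.0204). The cause of these changes was not tested. Every fit with a library left out held fewer samples, and in Scr vs EV the region calls fell in some of these fits and rose in others.

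With the replicate number as a block, the counts of calls were 1 region in KD4 vs Scr, 2 in KD6 vs KD4 and 5 in Scr vs EV, and 1 window in each. Some of the features differed. In KD6 vs KD4 the block called chr17:35865230-35867780 (adjusted p = 0.039) and not chr17:35598923-35599140 (0.0572). In Scr vs EV it called chr17:34831306-34832381 (0.0496) and the window from 34.9 Mb (0.0469), and not chr17:34896900-34897288 (0.0524) or the window from 34.4 Mb (0.0777). Same-numbered libraries did not deviate together in each pair of lines (correlations of deviations from -0.266 to 0.357), so the numbers were not taken to pair the libraries, and whether same-numbered libraries share a batch was not tested. Not every library correlated best with its own number. At chr17:36145756-36146150, though, the level fell from replicate 1 to replicate 3 in each of the 5 lines. Replicate 3 was also the lowest of each line in the 100 kb window from 36.1 Mb. Fits without a block do not take this order into account. The summed locus difference with the block was -0.0115 for KD vs Scr, -0.0677 for KD6 vs KD4, -0.1161 for OE vs EV and -0.0805 for Scr vs EV, with exact p-values of 1, 0.5, 0.25 and 0.5, where 0.25 is the smallest that 3 pairs allow.

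With 3 libraries per line and locus regions of 12.3 CPM in the median, a missing call does not show that lines were alike.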

Other observations

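Deposited values that were not whole numbers were more common in the locus than over all regions. A region with such a value in at least 1 library made up 44.1% of the locus regions and 26.6% of all regions in the KD table, and 43.9% against 28.4% in the OE table. Such values are more frequent at higher levels, and locus regions had higher levels. Among regions with 5 to 20 CPM the shares were 34.7% of 72 locus regions and 28.0% of 14635 regions in the KD table, and 36.1% of 72 against 34.9% of 12107 in the OE table. Among regions with 20 to 100 CPM they were 71.0% of 69 against 60.7% of 7661, and 78.8% of 52 against 70.2% of 5545. These differences were not tested.

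A pair of regions was seen again 45.2 kb further along with nearly the same lengths and levels, which was noticed after the values were seen. The region chr17:35620014-35620298 (285 bp) ranged from 48.6 to 62.8 CPM over the 15 libraries and chr17:35665213-35665493 (281 bp) from 48.8 to 64.3 CPM. Within a library their ratio lay between 0.929 and 1.05. The neighbouring region chr17:35622232-35622492 (261 bp, mean 10.1 CPM) had its counterpart in chr17:35667424-35667689 (266 bp, mean 9.69 CPM), with ratios between 0.806 and 1.26. The values of these 4 regions are given as uncertain, since reads from copies of a sequence cannot be told apart by position, and whether the sequences are copies was not tested.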
